A study of Mus musculus with 17 samples.

Results

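The genes described here are those that build or switch on the hair fibre and its sheath. They were chosen by symbol, but with earlier results of these data known, so shares of members and of all genes are descriptions. The rule took every gene with a probe set of its own on the array whose symbol starts with Krtap, or is a hair keratin (Krt25 to Krt28, Krt31 to Krt36, Krt71 to Krt75, Krt81 to Krt86), or is Tchh, Tchhl1, Dsg4, Hoxc13, Foxn1, Msx1, Msx2, Padi3 or S100a3. This gave 50 genes of the 12393 with a probe set of their own. Of these, 26 were keratin-associated protein genes and 24 were others. For 6 members with several probe sets, the one with the highest mean over all tumours was used. The 7 names Krt26, Krt28, Krt73, Krt74, Krt85, Tchhl1 and Dsg4 were not analysed here, and 4 probe sets that hybridise to several genes with a member among them were left out.

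The 17 samples are mammary tumours, each on an Affymetrix mouse array of its own, from FVB mice carrying Myc T58A, a mutant of the Myc transcription factor, under MMTV, a viral promoter active mainly in mammary epithelium. All 17 tumours share this transgene, which the labels describe as low expressing, so no sample without it enters any comparison. By histology the labels give 6 EMT tumours (for epithelial to mesenchymal transition), 1 Papillary tumour, 1 Microacinar tumour and 9 Squamous tumours. Mouse ages, and whether tumours came from separate animals, are not given in the sources used here, so p-values reflect only how these tumours vary, and some of that variation may be technical. Squamous 7 and Squamous 8 share a number in their titles, and so do Squamous 5 and the Microacinar tumour. Numbers after a histology, as in EMT 1, only tell tumours apart.

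A hair follicle is a set of nested cylinders. Matrix cells at its base divide and then differentiate into the hair shaft (medulla, cortex and cuticle), the inner root sheath that moulds the shaft, and the companion layer between the inner and outer root sheaths. Shaft cells fill with hard keratins, in which a type I and a type II chain pair to form filaments, and the sulphur-rich or glycine-tyrosine-rich keratin-associated proteins then crosslink these filaments. Inner root sheath cells instead make their own keratins and harden with trichohyalin. A normal mammary gland makes no hair, whereas squamous mammary tumours of mice are known for keratinised areas.

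The start of a hair gene is illustrated by the 250 bases upstream of 6 members, taken from RefSeq on the mouse build GRCm38.p6 and written on the strand of the gene, 5′ to 3′. They comprise 4 type I shaft keratins that lie close together on chromosome 11 and, for contrast, Krt25 of the inner root sheath and Krtap8-1. Capitals mark 3 short motifs: TATAAA, the TATA box letters, CTTTGA, the core letters bound by LEF and TCF factors of the Wnt pathway, and TTTATG, letters of the kind bound by homeodomain proteins such as HOXC13, which is known to bind human hair keratin promoters.
Krt31, chr11:100050552-100050801, minus strand: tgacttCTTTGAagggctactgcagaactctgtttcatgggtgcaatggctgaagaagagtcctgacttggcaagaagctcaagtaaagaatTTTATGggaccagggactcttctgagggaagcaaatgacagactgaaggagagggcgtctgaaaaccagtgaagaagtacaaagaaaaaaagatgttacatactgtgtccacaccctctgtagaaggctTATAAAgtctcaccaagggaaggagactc
Krt32, chr11:100088270-100088519, minus strand: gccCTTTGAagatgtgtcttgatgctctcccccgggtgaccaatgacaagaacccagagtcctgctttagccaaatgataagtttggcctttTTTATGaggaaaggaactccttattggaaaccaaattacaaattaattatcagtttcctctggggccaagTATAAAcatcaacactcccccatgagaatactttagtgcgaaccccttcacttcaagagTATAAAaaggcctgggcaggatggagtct
Krt33b, chr11:100029869-100030118, minus strand: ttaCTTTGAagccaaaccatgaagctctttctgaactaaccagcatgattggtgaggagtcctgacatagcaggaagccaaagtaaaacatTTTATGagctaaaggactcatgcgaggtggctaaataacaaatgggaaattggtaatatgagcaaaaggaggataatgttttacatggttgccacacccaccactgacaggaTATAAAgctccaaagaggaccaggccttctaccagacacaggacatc
Krt34, chr11:100041555-100041804, minus strand: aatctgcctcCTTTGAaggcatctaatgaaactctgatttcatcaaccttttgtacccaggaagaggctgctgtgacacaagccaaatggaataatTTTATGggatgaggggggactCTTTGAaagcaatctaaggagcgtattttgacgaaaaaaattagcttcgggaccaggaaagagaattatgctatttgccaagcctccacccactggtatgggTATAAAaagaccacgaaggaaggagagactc
Krt25, chr11:99322952-99323201, minus strand: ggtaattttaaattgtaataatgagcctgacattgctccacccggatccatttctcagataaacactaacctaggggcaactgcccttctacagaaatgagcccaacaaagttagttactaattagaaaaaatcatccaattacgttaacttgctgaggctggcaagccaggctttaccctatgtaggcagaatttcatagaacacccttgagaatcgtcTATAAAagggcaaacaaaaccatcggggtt
Krtap8-1, chr16:89487953-89488202, minus strand: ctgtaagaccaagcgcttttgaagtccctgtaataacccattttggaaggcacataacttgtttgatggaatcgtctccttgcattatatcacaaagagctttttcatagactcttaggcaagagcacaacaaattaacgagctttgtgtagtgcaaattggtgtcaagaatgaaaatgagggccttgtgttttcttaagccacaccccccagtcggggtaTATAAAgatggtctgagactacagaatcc
Counting from -1 at the base before the start, the CTTTGA match began at -244 in Krt31, -247 in Krt32, -247 in Krt33b and -240 in Krt34. The TTTATG match began at -158 in Krt31 and Krt32, -159 in Krt33b and -154 in Krt34. Krt34 had a further CTTTGA at -133 and Krt32 a further TATAAA at -88. TATAAA began at -29 in Krt31, Krt32 and Krtap8-1, at -31 in Krt34, at -30 in Krt25 and at -47 in Krt33b. Krt25 and Krtap8-1 held neither of the other motifs in these bases.

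RefSeq windows were matched for 43 of the 50 members, 46 windows in all, since S100a3 has several starts. On the gene's strand, TATAAA began between -40 and -20 in 17 of the 46 windows (37.0%), against 1.99% of all 32851 windows. CTTTGA was read on both strands and was present in 14 member windows (30.4%), against 13.8% of all. TTTATG, also on both strands, was present in 16 (34.8%), against 10.8% of all. Both of these together were found in 8 member windows (17.4%), against 1.80% of all, and 4 of the 8 belong to the type I shaft keratins printed above. TTTATG was chosen as a motif after these windows were seen, so its shares describe the windows that prompted it and support nothing. The fifth type I window, that of Krt36, held none of the 3 motifs, and none of the 5 inner root sheath windows held TTTATG. Related genes share sequence by descent, so these windows are not independent, and a match describes letters, not binding.

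All values are log2 values as deposited, so 1 unit is a 2-fold difference, and fold changes and deviations compare tumours for 1 gene at a time. A level, and whether it passes the array's median, also depends on the probe set, so levels of different genes are not set against each other. Array medians lay between 7.36 and 7.40 on the 3 arrays with TM in the title (EMT 5, EMT 6 and Squamous 9) and between 7.23 and 7.35 on the 14 with numbered titles. The TM arrays had a lower floor: the 5th percentile of all probe sets was 3.39 to 3.43 on the TM arrays, against 3.91 to 3.97 on the numbered ones. Of the members, 12 had exactly the same value in EMT 5 and EMT 6, among them Krtap19-1, Krtap19-2 and Krtap19-3, which also had that value in Squamous 9. Hoxc13 (4.75), Krt35 (5.29), Krt82 (3.77) and S100a3 (4.39) were also among the 12. Such ties were not particular to hair genes: 2989 of all 22690 probe sets had the same value on all 3 TM arrays, as had 3 members. The share of all genes equal in EMT 5 and EMT 6 alone was not counted. RNA integrity, read as the 3′ minus 5′ difference of the Gapdh control probe sets, was -0.03 to 0.39 in EMT tumours and -0.02 to 0.38 in Squamous tumours. Cdh1, the epithelial cadherin that cells lose in an epithelial to mesenchymal transition, was at 11.91, 12.09 and 11.84 in EMT 1, EMT 2 and EMT 3 and at 7.04 to 8.10 in the other EMT tumours, against 11.13 to 11.97 in Squamous tumours. The histology labels were kept as given. With 1 array per tumour, the number of tumours limits the precision.

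Many, though not all, of the hair genes were high in the same tumours and low in the same others. Of the 50 members, 32 (64.0%) spanned over 4 log2 units between their lowest and highest tumour, against 7.25% of all genes. The median span was 4.89 for the members and 1.18 for all genes. A level above the median of the tumour's own array was reached in at least 1 tumour by 41 members. The share of all genes that did so was not counted, so this number has nothing to be set against. For 8 members (Krt25, Krt31, Krt33b, Krt34, Krt35, Krt86, Krtap4-16 and Krtap8-1) the tumours above that median were the same 10: EMT 1, EMT 3 and Squamous 2 to Squamous 9. Thus tumours of both labels carried these 8 genes. They did not pass that median in EMT 2, EMT 4, EMT 5, EMT 6, the Papillary tumour, the Microacinar tumour and Squamous 1. The share of all genes with this pattern was not counted. Other members differed: 9 passed the median in no tumour. Krt27 was 11.20 in EMT 4, Padi3 10.52 in EMT 2 and Tchh 9.66 in Squamous 1. In bulk tissue, fewer cells of a type and less RNA per cell cannot be told apart.

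**Figure D1:**
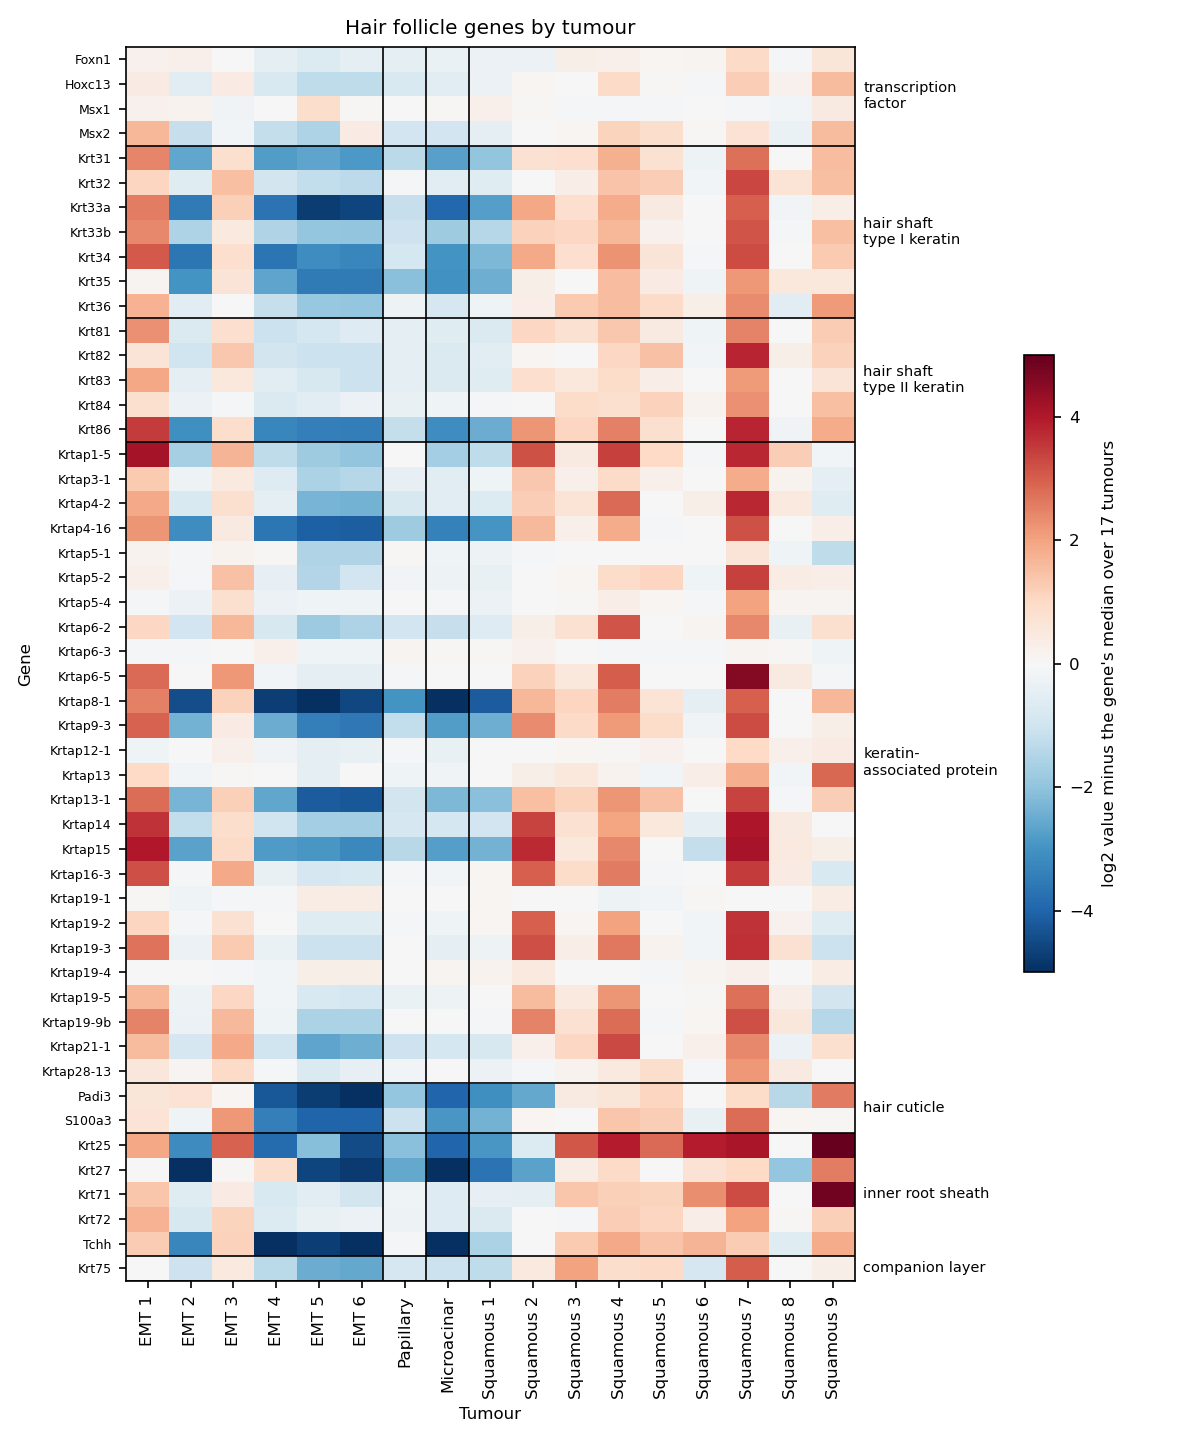
Difference of each of the 50 hair follicle genes (rows, grouped by role) from its own median over 17 tumours, in log2 units, for each tumour (columns), with colours saturated at 5 units either way. Squamous 7 is the column with the highest values, and EMT 5, EMT 6, the Microacinar tumour and Squamous 1 are mostly below the median.

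Single tumours stood out. The highest value of a member lay in EMT 1 for 2 members (4.80% of all genes), in EMT 4 for 1 (7.85%) and in EMT 5 for 1 (15%), against 35 of the 50 members in Squamous 7 (1.36%), 6 in Squamous 9 (7.51%), 3 in Squamous 4 (2.33%) and 1 in Squamous 2 (11.4%). Krtap19-1, whose highest value is shared by EMT 5, EMT 6 and Squamous 9, was counted in none of them, nor were the 419 genes with such a tie. At least 2 log2 units above their own median were 17 members in EMT 1 (0.734% of all genes) and 3 in EMT 3 (0.194%). Among Squamous tumours these counts were 35 in Squamous 7 (0.686%), 16 in Squamous 4 (0.468%), 9 in Squamous 2 (0.460%), 6 in Squamous 9 (1.52%), 2 in Squamous 3 (0.742%), 2 in Squamous 6 (0.444%) and 1 in Squamous 5 (0.226%). No member lay that far above its median in EMT 2, EMT 4, EMT 5, EMT 6, the Papillary tumour, the Microacinar tumour, Squamous 1 or Squamous 8, where 1.26%, 1.80%, 3.26%, 2.15%, 0.637%, 0.960%, 0.428% and 0.533% of all genes did, in that order. At the other end, 18 members lay at least 2 units below their median in EMT 5 (3.46% of all genes), 18 in EMT 6 (3.11%), 14 in EMT 4 (2.31%) and 13 in EMT 2 (1.46%). So did 4 in the Papillary tumour (0.242%), 15 in the Microacinar tumour (0.742%), 13 in Squamous 1 (1.09%) and 2 in Squamous 2 (0.702%). Squamous 7 and Squamous 8, which share a title number, differed: the median deviation of the 50 members from their own medians was 2.74 in Squamous 7 and 0.00 in Squamous 8.

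Trichohyalin (Tchh), the granule protein that hardens the inner root sheath and the medulla, marks the follicle. It was above its array's median in 13 of the 17 tumours. Its lowest, median and highest levels were 3.29, 7.27 and 12.50 in EMT tumours, against 9.66, 12.56 and 13.13 in Squamous tumours, with the Microacinar tumour at 4.71. EMT 1 (12.50) and EMT 3 (12.40) lay within the Squamous range, and the other 4 EMT tumours lay below all 9 Squamous tumours. Tchh was at 11.19 in the Papillary tumour and 9.66 in Squamous 1, where the shaft keratins were low or intermediate. Trichohyalin is also known outside hair, in the filiform papillae of the tongue.

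The other inner root sheath genes were Krt25, Krt27, Krt71 and Krt72, whose products form the sheath's filaments. Krt25, a type I chain, had its lowest, median and highest levels at 4.13, 5.96 and 11.56 in EMT tumours, against 5.70, 11.71 and 13.76 in Squamous tumours. The Papillary tumour had 6.51 and the Microacinar tumour 4.67. Levels above 10 were found in EMT 1, EMT 3 and 6 Squamous tumours, and Squamous 2 (7.94) and Squamous 8 (8.62) lay between these and the low tumours.

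Krt27, a further type I sheath keratin, was 4.80, 8.05 and 11.20 (lowest, median and highest) in EMT tumours, against 6.66, 10.69 and 12.89 in Squamous tumours. Its highest EMT value was in EMT 4, where Krt25 was 4.79 and Tchh 4.74. Krt71, a type II sheath keratin, was highest in Squamous 9 at 11.60, with EMT 1 at 8.19 and the other EMT tumours between 5.88 and 7.21. Krt72 lay between 5.47 and 8.29 over all 17 tumours and was highest in Squamous 7.

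The shaft keratins of type I varied much alike over the tumours. Krt33a, a cortex keratin, had its lowest, median and highest levels at 4.29, 5.42 and 11.61 in EMT tumours, against 6.29, 9.47 and 12.03 in Squamous tumours. Krt34 had 4.45, 4.93 and 11.19 in EMT tumours, against 5.85, 8.94 and 11.37 in Squamous tumours. Krt31 had 5.55, 5.80 and 10.87 in EMT tumours, against 6.44, 9.17 and 11.16 in Squamous tumours. For all 3 genes, 4 EMT tumours lay below every Squamous tumour, EMT 1 held the highest EMT value, and Squamous 1 was the lowest Squamous tumour. The Papillary tumour was intermediate, with 7.87 for Krt33a, 7.23 for Krt34 and 7.05 for Krt31. In the Microacinar tumour the same genes stood at 5.10, 5.14 and 5.68.

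Krt32, Krt33b, Krt35 and Krt36 complete the type I set. Krt35, made early in the matrix and cuticle, was 8.95 in EMT 1 and 9.47 in EMT 3, against at least 8.62 in each of Squamous 2 to Squamous 9 and 6.38 in Squamous 1. Krt32, a cuticle keratin, reached 10.02 in Squamous 7 and at most 8.19 in any other tumour. Krt33b spanned 5.76 to 10.90 and Krt36 spanned 5.52 to 9.81 over all tumours.

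Of the type II partners, Krt86 moved over the widest range. Its lowest, median and highest levels were 4.08, 4.39 and 11.05 in EMT tumours, against 5.08, 8.64 and 11.36 in Squamous tumours. Krt81 had 7.04, 7.41 and 10.40 in EMT tumours, against 7.39, 8.86 and 10.59 in Squamous tumours. Krt83 had 6.79, 7.37 and 9.80 in EMT tumours, against 7.27, 8.39 and 9.98 in Squamous tumours. EMT 1 was the EMT maximum for all 3 genes and Squamous 7 the maximum over all tumours. Krt81, Krt83 and Krt86 are close paralogs, as are Krt33a and Krt33b, so their probe sets may not read the genes apart. Krt82, a cuticle keratin, was above its array's median in Squamous 7 alone, at 8.66, and Krt84 was lowest in EMT 4, at 5.99, and highest in Squamous 7.

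The keratin-associated proteins crosslink the shaft's filaments. Krtap8-1, a glycine-tyrosine-rich member, had lowest, median and highest levels of 3.98, 4.62 and 11.65 in EMT tumours, against 4.99, 10.20 and 12.12 in Squamous tumours. Krtap13-1 had 4.55, 6.34 and 11.57 in EMT tumours, against 6.69, 10.01 and 12.16 in Squamous tumours. Krtap4-16 had 4.33, 5.09 and 10.64 in EMT tumours, against 5.48, 8.72 and 11.64 in Squamous tumours. In all 3 genes 4 EMT tumours lay below every Squamous tumour and EMT 1 and EMT 3 lay within the Squamous range.

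Of the other 23 Krtap genes, several passed their array's median in few tumours. Krtap15 was 10.83 in EMT 1 and 7.76 in EMT 3, against 10.94 in Squamous 7, 10.53 in Squamous 2 and 9.23 in Squamous 4. Krtap1-5 was 10.69 in EMT 1, its maximum, against 10.31 in Squamous 7. Krtap21-1 and Krtap6-2 had their maxima in Squamous 4, at 10.02 and 9.26, and so differed from most of the family, which peaked in Squamous 7. Krtap9-3 ranged between 2.87 and 9.72, Krtap4-2 between 2.98 and 9.14, and Krtap3-1 between 6.54 and 9.97. Krtap14 and Krtap19-9b were above their array's median in 4 and 5 tumours, all among EMT 1, EMT 3, Squamous 2, Squamous 4 and Squamous 7. Krtap5-1, Krtap5-2, Krtap6-5, Krtap19-2 and Krtap19-3 were above it in Squamous 7 alone. Krtap13, Krtap16-3, Krtap19-1, Krtap19-4, Krtap19-5, Krtap28-13, Krtap5-4 and Krtap6-3 never reached it. Krtap6-3, Krtap19-1 and Krtap19-4 spanned under 1 unit over all tumours. Krtap12-1 shows that the choice of probe set matters: the one used spanned 7.16 to 8.59, and the other 4.95 to 8.75, both highest in Squamous 7.

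The Krtap genes lie in clusters, and 16 of the members are on chromosome 16, 5 on chromosome 11 and 3 on chromosome 7. In EMT 1 the median deviation from the genes' own medians was 2.08 for the chromosome 16 genes, 2.19 for the chromosome 11 genes and 0.17 for the chromosome 7 genes, all of which are Krtap5 genes. In Squamous 4 these medians were 2.31, 2.11 and 0.35. In Squamous 7 they were 3.11, 3.27 and 2.00. The chromosome 7 genes were not alike there, with Krtap5-1 at 0.63, Krtap5-4 at 2.00 and Krtap5-2 at 3.42. In Squamous 4 the same genes were at 0.02, 0.35 and 0.92, in that order.

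Padi3 and S100a3 act together in the hair cuticle: PADI3 converts arginines of trichohyalin and of S100A3 to citrulline, and S100A3 is a calcium-binding protein of cuticle cells. Padi3 had lowest, median and highest levels of 4.79, 7.72 and 10.52 in EMT tumours, against 6.71, 10.23 and 12.40 in Squamous tumours. S100a3 had 4.39, 6.59 and 10.57 in EMT tumours, against 6.03, 8.50 and 11.21 in Squamous tumours. The highest EMT value of Padi3 was in EMT 2, where S100a3 was 8.18 and the shaft keratins Krt34 and Krt86 were 4.50 and 4.48. Padi3 is also known in the epidermis.

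Krt75, a type II keratin of the companion layer and medulla, had lowest, median and highest levels of 4.15, 5.52 and 7.22 in EMT tumours, against 5.45, 7.20 and 9.73 in Squamous tumours. It passed its array's median in Squamous 3, Squamous 4, Squamous 5 and Squamous 7.

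The 4 transcription factors each spanned under 4 log2 units. HOXC13 is needed for hair keratin expression and its loss leaves mice with brittle hair. Hoxc13 had lowest, median and highest levels of 4.75, 5.36 and 6.41 in EMT tumours, against 5.72, 6.12 and 7.60 in Squamous tumours. EMT 1 (6.40) and EMT 3 (6.41) were the highest EMT tumours, and Squamous 9 (7.60), Squamous 7 (7.23) and Squamous 4 (6.98) were the highest of all. Foxn1, the factor lost in nude mice, stayed between 4.81 and 6.45, below the array median in all 17 tumours, with its maximum in Squamous 7.

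Msx2, a homeobox factor of the matrix and upper hair bulb, had 5.60, 6.49 and 8.81 (lowest, median and highest) in EMT tumours, against 6.63, 7.24 and 8.72 in Squamous tumours. EMT 1 held its highest value of all 17 tumours, and EMT 6, with low hair keratins, had 7.56. Msx1, a related factor, had 6.45, 6.75 and 7.51 in EMT tumours, against 6.50, 6.60 and 7.09 in Squamous tumours, with the 2 groups overlapping almost fully. A further Msx1 probe set spanned 5.43 to 8.36, and both probe sets were highest in EMT 5.

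**Figure D2:**
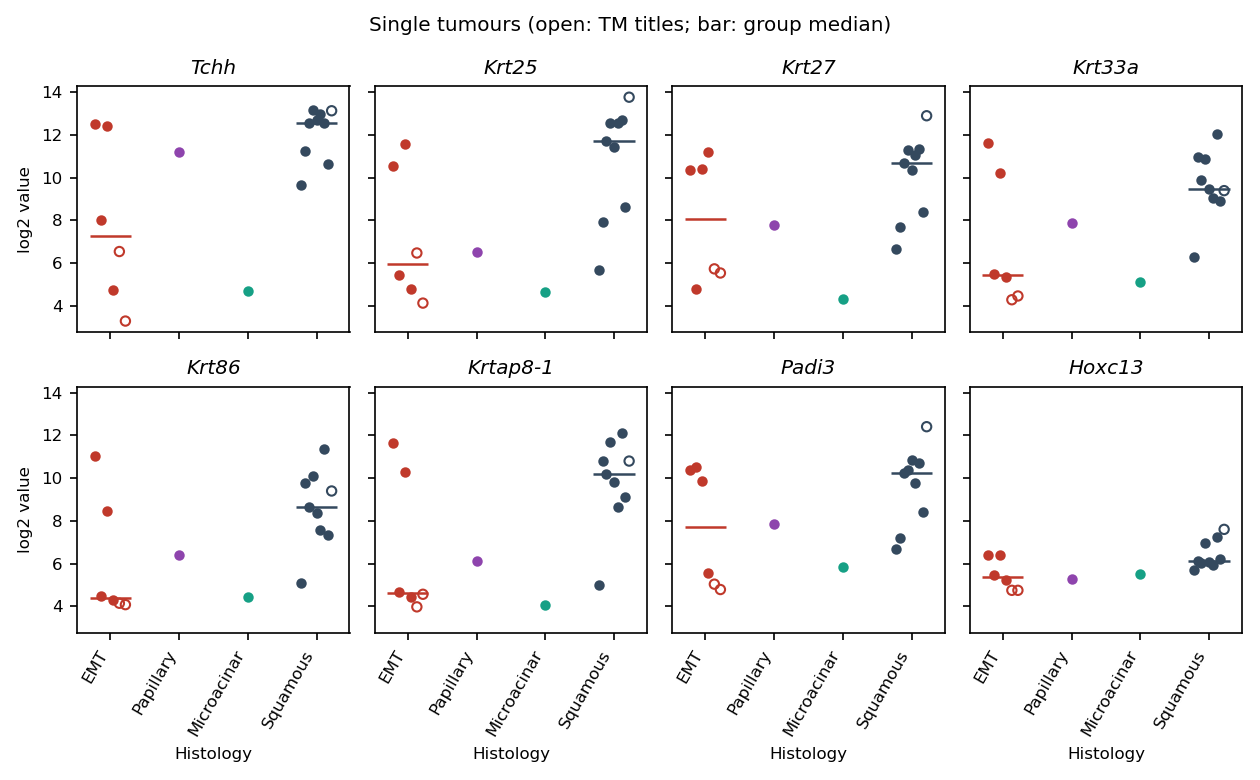
Log2 level of 8 members by histology, 1 point per tumour, open for TM titles, with a bar at the median of the EMT and of the Squamous tumours. EMT 1 and EMT 3 lie among the Squamous tumours in all 8 panels, and Squamous 1 lies lowest of the Squamous tumours.

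Sheath and shaft genes did not always go together. The sheath is summarised by the median deviation of its 5 members from their own medians and the shaft by that of the 12 hard keratins. In EMT 1 these were 1.40 and 2.11, in EMT 3 they were 1.11 and 0.82, and in Squamous 7 they were 2.00 and 2.87, so all 3 tumours had both programmes above the median. Squamous 2 had the shaft keratins at 0.81 and the Krtap genes at 1.28 with the sheath at -0.46, a difference (sheath minus shaft) of -1.26. That difference was -1.90 in EMT 2, -2.52 in EMT 6 and -2.64 in the Microacinar tumour, where both sets lay below their medians. Spans over the tumours ran from 2.82 (Krt72) to 9.84 (Tchh) in the sheath. In the shaft they ran from 3.01 (Krt84) to 7.74 (Krt33a), so falls of the 2 sets are not on 1 scale. Squamous 6 showed the opposite order, with the sheath at 1.70, the shaft keratins at -0.04 and the Krtap genes at -0.01. In Squamous 9 the sheath was at 2.56 and the shaft keratins at 1.40, but the Krtap genes at 0.07 and the Krtap19 genes at -0.76. Squamous 9 is a TM array, on which probe sets near the floor read lower, and how far this sets its Krtap values was not tested.

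**Figure D3:**
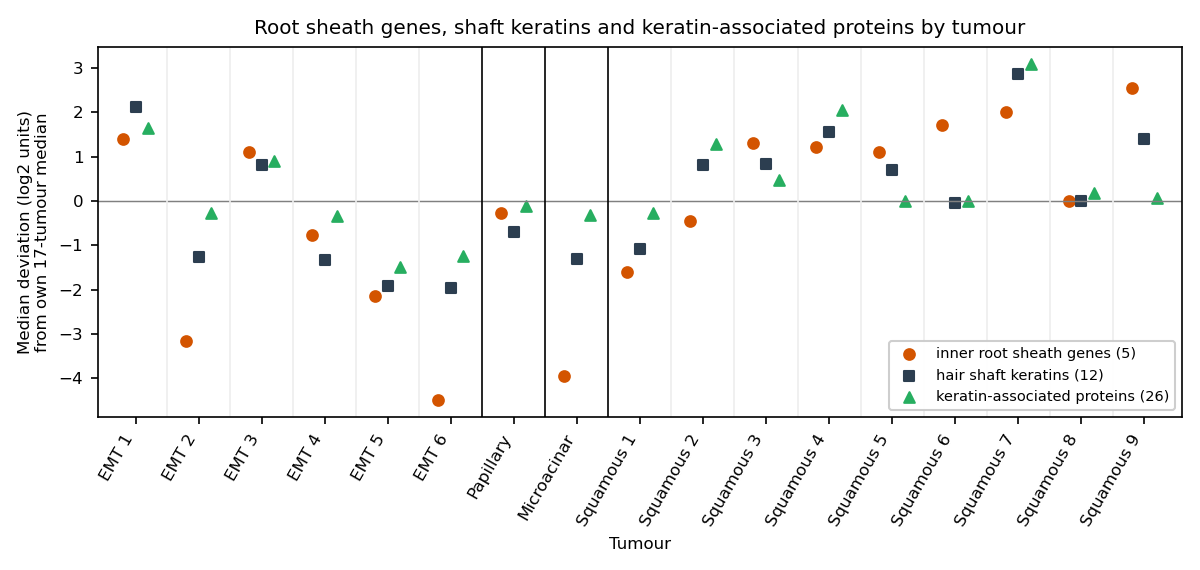
Median deviation, in log2 units, of the 5 inner root sheath genes (circles), the 12 hair shaft keratins (squares) and the 26 keratin-associated protein genes (triangles) from the genes' own medians over 17 tumours, for each tumour. The sheath lies below the shaft keratins in Squamous 2, and further below them in EMT 2, EMT 6 and the Microacinar tumour, and it lies above both other sets in Squamous 6 and Squamous 9.

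The single comparison with replicates is that of the 6 EMT tumours with the 9 Squamous tumours. In it, 47 of 50 members had lower fitted levels in EMT tumours, but none passed the threshold of 0.05 on the adjusted p. The fit was limma over all 12393 genes with a term for title format and Benjamini-Hochberg adjustment, and 0% of all genes passed, the lowest adjusted p being 0.0982. Without adjustment, 9 members (18.0%) had a limma p under 0.05, as had 1778 (14.3%) of all genes. The median log2 fold change, EMT minus Squamous, was -0.91 over the members and 0.01 over all genes. A fold change below -1 was found for 20 members (40%), against 3.27% of all genes. Without EMT 1 the members' median was -1.25, and without Squamous 9 it was -0.49. Squamous 9 is the only Squamous tumour with a TM title. Leaving it out therefore also sets aside the EMT tumours with TM titles, and the fit rests on the numbered arrays alone. So the -0.49 does not show the effect of Squamous 9 by itself. The same holds for every fold change given below without Squamous 9.

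The spread within EMT, with EMT 1 and EMT 3 high and 4 tumours low, is large beside these differences. In 35 of 50 members at least 3 of the EMT values were under every Squamous value, as was so for 11.0% of all genes. In 0 members were the groups without overlap, against 0.250% of all genes.

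Among the sheath genes, the fold change of Tchh was -3.65 ± 1.29 (SE; limma adjusted p = 0.252), the largest of the members. Krt25 followed with -3.54 ± 1.54 (adjusted p = 0.325), and Krt27 had -1.84 ± 1.28 (adjusted p = 0.524). The 5 sheath genes were all lower in EMT tumours, with a median of -1.86. Without Squamous 9, Tchh was at -2.51, Krt25 at -2.31 and Krt27 at -0.49. Without EMT 1, Tchh was at -4.64.

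The 7 type I shaft keratins were all lower in EMT tumours, with a median of -1.75, and so were the 5 of type II, with a median of -0.97. Krt34 had -2.22 ± 1.13 (SE; limma adjusted p = 0.385) and Krt33a -2.21 ± 1.14 (adjusted p = 0.390). Krt31 stood at -1.75 ± 0.93 (adjusted p = 0.402). Krt86 had -2.22 ± 1.21 (adjusted p = 0.416), and Krt81 and Krt83 had smaller differences of -0.65 ± 0.59 (adjusted p = 0.637) and -0.44 ± 0.46 (adjusted p = 0.692). Leaving out EMT 1 moved Krt31 to -2.62 and Krt86 to -3.37. Without Squamous 9, and so on the numbered arrays alone, Krt31 and Krt86 were at -1.11 and -1.45. Krt81 and Krt83 were at -0.31 and -0.15 without Squamous 9.

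Of the 26 Krtap genes 24 were lower in EMT tumours, with a median of -0.51. Krtap8-1 had -2.83 ± 1.40 (SE; limma adjusted p = 0.371), Krtap4-16 -2.09 ± 1.06 (adjusted p = 0.384) and Krtap13-1 -2.02 ± 1.05 (adjusted p = 0.394). Without Squamous 9, Krtap8-1 was at -1.91 and Krtap13-1 at -1.17. Krtap5-1 and Krtap6-3 were at 0.00. Padi3 had -1.65 ± 1.18 (adjusted p = 0.537), but -0.19 without Squamous 9. That fit also sets aside EMT 5 (5.04) and EMT 6 (4.79), the lowest EMT values of Padi3. S100a3 had -1.25 ± 0.93 (adjusted p = 0.553), and -0.55 without Squamous 9. Krt75 stood at -1.47 ± 0.63 (adjusted p = 0.320).

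Of the transcription factors, Hoxc13 had a fold change of -0.89 ± 0.37 (SE; limma adjusted p = 0.310), and -0.41 without Squamous 9. Msx2 had -0.79 ± 0.50 (adjusted p = 0.483), and -0.46 without Squamous 9. Foxn1 had -0.35 ± 0.22 (adjusted p = 0.482). Msx1 had 0.04 ± 0.12 (adjusted p = 0.904), and its sign turned without EMT 1 or without EMT 5.

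**Figure D4:**
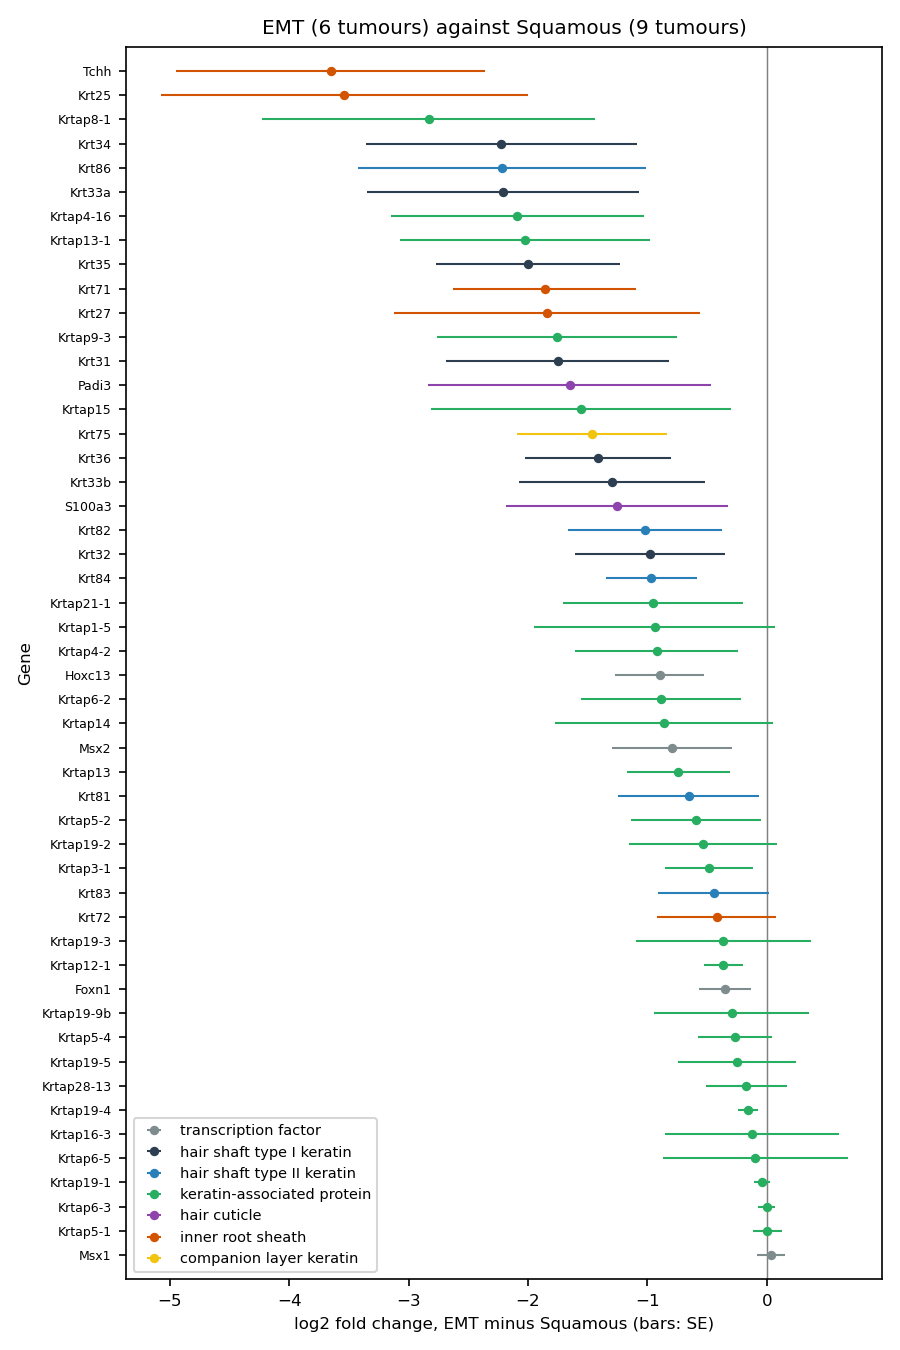
Log2 fold change, EMT minus Squamous, of the 50 members with its standard error, sorted by size and coloured by role, from the limma fit over all genes. All but 3 points lie below 0, and no member passed the adjusted threshold.

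Other genes of the follicle were read from lists written from general knowledge. Of 30 measured regulators of the hair follicle (31 listed), 24 were lower and 6 higher in EMT tumours with a median of -0.25, and none passed the adjusted test. The largest difference was that of Grhl1, a grainyhead factor of differentiating epidermis and follicle, at -2.31 ± 0.85 (SE; limma adjusted p = 0.259). EMT 1, EMT 2 and EMT 3 had Grhl1 levels of 9.81, 9.35 and 10.15 and the other EMT tumours had 4.65 to 5.24, against 9.38 to 11.08 in Squamous tumours. EMT 2 thus had Grhl1 with hair keratins such as Krt25 (5.45), Krt34 (4.50) and Krt86 (4.48) low. Krt81 (7.38) and Krt83 (7.42) were just above the median of that array, 7.23. Of the 18 enzymes and junction partners of cornification (22 listed), 16 were lower in EMT tumours, with a median of -1.11. Klk7, a protease that sheds cornified cells, had the largest difference, -2.15 ± 0.91 (adjusted p = 0.314). Without Squamous 9, Grhl1 was at -1.39 and Klk7 at -1.35, and without EMT 4 Grhl1 was at -1.49.

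The markers of the other compartments of skin were not alike. The 20 measured genes of the interfollicular and suprabasal epidermis (24 listed) had a median of -2.43, with 17 lower and Rptn, a cornified envelope protein, at -4.14 ± 1.46 (SE; limma adjusted p = 0.252). EMT 1 and EMT 2 had mean levels of 8.62 over this list, EMT 3 had 7.95 and the other EMT tumours had 4.73 to 6.07. Squamous means ran from 6.18 in Squamous 8 and 7.55 in Squamous 2 to 11.37 in Squamous 9. Squamous 1 had 9.24 and Squamous 7 had 8.13, so EMT 1, EMT 2 and EMT 3 lay within the Squamous range. Members of the list went opposite ways in EMT 2, where Krt6a was at 14.10 and Krt16 at 13.21 but Krt1 was at 6.37 and Rptn at 3.73. Rptn was at -2.76 without Squamous 9 and at -1.42 with its probe sets averaged. The 8 bulge and outer root sheath genes (9 listed) had a median of 0.02, with 4 lower and 4 higher in EMT tumours. The largest difference was that of Krt17, at -1.90 ± 1.21 (adjusted p = 0.486). Krt17 was at -0.49 without Squamous 9, -1.12 without EMT 4, -3.05 without EMT 2 and -0.93 with its probe sets averaged. The 14 dermal papilla genes (15 listed) had a median of -0.05, with 9 lower and 5 higher in EMT tumours. Crabp1 at 1.87 and Vcan at 1.46 were among the higher ones. The largest difference was that of Wif1, a secreted Wnt inhibitor, at -3.52 ± 1.30 (adjusted p = 0.263), and -2.47 without Squamous 9. Wif1 was 12.49 in EMT 1 and 9.10 in EMT 3, against 7.15 to 11.70 in Squamous tumours, and stood between 3.61 and 5.33 in the other EMT tumours.

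Markers of other cells found beside follicles in skin were read across the same tumours. The 8 measured melanocyte genes (9 listed) were below every array's median in all 17 tumours, with list means of 4.62 to 5.31 in EMT tumours and 4.61 to 5.34 in Squamous tumours, and a median fold change of -0.02, the largest being Dct at -0.25 ± 0.26 (SE; limma adjusted p = 0.690). FVB mice are albino, which does not by itself mean that melanocytes are missing. The 5 sebaceous genes (7 listed) had list means of 4.81 to 6.78 in EMT tumours and 6.17 to 7.01 in Squamous tumours, with a median of -0.21 and Krt79 at -2.62 ± 1.11 (adjusted p = 0.315), and -1.63 without Squamous 9. The 9 skeletal muscle genes had list means of 5.12 to 10.88 in EMT tumours, with EMT 1 and EMT 5 both at 5.12 and EMT 4 highest, and of 9.86 in the Papillary tumour and 10.15 in the Microacinar tumour, against 5.14 to 9.29 in Squamous tumours. Squamous 6 (9.29), Squamous 3 (9.04) and Squamous 1 (8.52) had the highest Squamous means, and Squamous 7 had 5.51. Their median was 0.76, all 9 higher in EMT tumours, with Myh1 at 2.02 ± 1.67 (adjusted p = 0.597), but 0.99 without EMT 4 and 1.34 with its probe sets averaged. None of these lists had a gene past the adjusted threshold, and whether follicles of adjoining skin contributed to the hair genes was not tested.

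Mammary epithelial genes were read in the same way. The 11 mammary epithelial genes had a mean of 11.73 in EMT 1 and 12.50 in EMT 3, and of 9.80, 9.68, 7.72 and 7.41 in EMT 2, EMT 4, EMT 5 and EMT 6, against 11.07 to 13.15 in Squamous tumours. Their median fold change was -2.29, with Wap, a milk protein, at -3.12 ± 0.65 (SE; limma adjusted p = 0.128). The 8 basal keratinocyte genes (9 listed) had a median of -0.43, with 5 lower and 3 higher in EMT tumours. The largest difference was that of Trp63, the p63 factor of basal cells, at -1.77 ± 1.08 (adjusted p = 0.467). Trp63 was at -0.79 without Squamous 9, -0.82 without EMT 4 and -0.69 with its probe sets averaged. Thus the EMT tumours with high hair genes were also the EMT tumours with the highest mammary epithelial mean, and the part of epithelial content in the EMT difference was not tested.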

How the data were processed

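RNA of 17 mammary tumours was measured on 1 Affymetrix array each. The authors deposited 1 value per probe set and tumour, taken here as log2 from its range. Their normalization is not given in the sources used here, and none was added. Of 22690 probe sets, 64 were controls, 20380 had 1 gene in GEO's platform annotation, 691 had several and 1555 had none, and 20351 were matched to current symbols by gene identifier. The probe set with the highest mean stood for each of 12393 genes, and no filter on low values was applied.

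The EMT and Squamous comparison used limma 3.58.1 (R 4.3.3), a model of histology plus title format, and Benjamini-Hochberg adjustment over all genes. The fit was tested on simulated data. Tables and figures used Python 3.11.15, pandas 2.3.3, numpy 2.4.6 and matplotlib 3.10.9. The members and gene lists were chosen with earlier results of these data known, and TTTATG was added as a motif after the windows were seen. Named members were Tchh, the 3 members of each role with the highest single value, and the gene of each list with the largest fold change. Others were named after their values were seen. Alternatives were no title format term, numbered arrays alone, array medians subtracted, quantile normalization, averaged probe sets, genes above the median level, array weights, 4 groups, Squamous 7 and Squamous 8 averaged, a trended and robust fit, and leaving out each tumour.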

Additional observations from a re-analysis of the deposited data

Results flagged for a closer look

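Among 28 genes with values given by histology, 56 groups were checked for a tumour far from the others, and chance marks about 1 group in 20. In 3 groups, all Squamous, the lowest tumour stood apart. Krtap8-1 was 4.99 in Squamous 1, and the nearest Squamous tumour had 8.64. Rptn was 4.21 in Squamous 8, and the nearest had 8.86. Klk7 was 7.35 in Squamous 8, and the nearest had 9.79. The gap was 0.512 of the group's range for Krtap8-1, 0.508 for Rptn and 0.530 for Klk7, above the critical value of 0.493 for 9 tumours.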

How the results depend on the processing

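No member passed the adjusted threshold in any of 25 settings (15 leaving out 1 tumour, 10 others), and of 443 fold changes of the 18 named members under these settings 441 kept their direction. Msx1 turned to -0.0064 without EMT replicate 1 and to -0.024 without EMT replicate 5, and reached at most 0.11 when 1 tumour was left out. The number of genes called was 0 throughout, except 14 without EMT replicate 1 (range 0 to 14). The members' median fold change was -1.13 with no title format term, -0.49 among numbered arrays, -1.84 among genes above the median level, and -0.62 with array weights, and ranged between -1.25 and -0.49 when 1 tumour was left out. Without Squamous 9 the title term takes up EMT 5 and EMT 6, so that value equals the one among numbered arrays. At a difference of 1 log2 unit the members above their own median numbered 32 in EMT 1, 18 in EMT 3, 20 in Squamous 2, 10 in Squamous 3, 32 in Squamous 4, 11 in Squamous 5, 3 in Squamous 6, 42 in Squamous 7, 1 in Squamous 8 and 20 in Squamous 9, where 1.11% to 6.17% of all genes did. At 3 log2 units they numbered 6 in EMT 1, 0 in EMT 3, 5 in Squamous 2, 1 in Squamous 3, 5 in Squamous 4, 0 in Squamous 5, 1 in Squamous 6, 21 in Squamous 7 and 2 in Squamous 9, where 0.0404% to 0.508% of all genes did. With the median taken over numbered arrays, chosen after seeing the data, EMT 3 had 1 and Squamous 5 had 0. No paired analysis was possible because the replicate numbers only name tumours and pair none of them. Values near the floor of the TM arrays limit what can be read of the weakest Krtap genes. Equal values in EMT 5 and EMT 6 likewise limit Hoxc13, Krt35, Krt82 and S100a3.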
